A study of Mus musculus with 5 samples.

Results

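The DDX and DHX genes encode RNA helicases, and 51 of them were read in Dicer-deficient and wild-type ES cells, the embryonic stem cells of the mouse. A gene was taken as a member when its symbol in the array's annotation begins with Ddx or Dhx and a digit, with Ddx3y left out, and when a probe set carries that symbol alone. The 51 genes, 35 named Ddx and 16 named Dhx, come from 19939 genes measured in the same way. For the 4 members with more than 1 probe set (Ddx3x, Ddx5, Ddx18 and Ddx54), the probe set brightest on average was used.

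There were 2 arrays of Dicer-deficient cells and 3 of wild-type cells, each from an asynchronous culture that the series describes as a biological replicate. Cells of both genotypes were grown without feeder cells in an equal mixture of serum medium with LIF and serum-free N2B27 medium with 2i, the inhibitor pair that holds ES cells in the naive state. The labels give neither the cell lines nor the Dicer allele, so what the loss of Dicer did and what else sets the lines apart cannot be told apart. Affymetrix arrays with whole-transcript labelling were used, and every level below is a log2 signal, on which a difference of 1 is a 2-fold change.

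DEAD-box (DDX) and DEAH-box (DHX) helicases share a core of paired RecA-like domains and are named after the letters of a conserved ATP-binding motif. They use ATP to open RNA duplexes or to strip proteins from RNA, DEAD-box members mostly by local unwinding and DEAH-box members mostly by moving along a strand. Between them they serve splicing, mRNA export, ribosome assembly, translation, mRNA decay and the sensing of foreign RNA. Some also meet the microRNA pathway: Ddx5 and Ddx17 bind the Drosha complex that cuts microRNA precursors in the nucleus, Ddx6 takes part in repression by microRNAs, and Dicer itself carries a helicase domain related to that of the RNA sensors.

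Dicer1 read 7.20 and 6.84 in Dicer-deficient cells, against 8.84, 8.82 and 8.85 in wild-type cells, so the arrays follow their labels for this gene. The array medians lay between 5.39 and 5.45. Of 10 ES cell markers, 3 were called lower in Dicer-deficient cells, Tcl1 (log2 change -1.60, adjusted p = 0.00124), Esrrb (-0.72, 0.00655) and Tdgf1 (-0.70, 0.00168), and 0 higher. The list averaged 10.47 and 10.26 on the Dicer-deficient arrays against 10.52 to 10.74 on the wild-type arrays. Pou5f1, Sox2 and Nanog, which define the state, read 11.99, 10.50 and 11.35 in Dicer-deficient cells and 11.82, 10.24 and 11.54 in wild-type cells, and were not called. Of 6 trophectoderm markers, 3 were called higher in Dicer-deficient cells (Krt8, Krt18 and Gata3, with log2 changes of 1.54, 0.49 and 1.23). The others, Eomes, Cdx2 and Elf5, had -0.49, 0.06 and 0.06 and were not called. The list averaged 6.30 and 6.29 on the Dicer-deficient arrays against 5.77 to 5.88 on the wild-type arrays. Fibroblast markers, 0 of 7 called by limma and 0 at an unadjusted p under 0.05, averaged 5.19 and 5.14 against 5.05 to 5.25. Of 3 neural markers, Pax6 was called higher (log2 change 0.95, adjusted p = 0.000501 in limma). Sox1 and Nes had -0.17 and -0.05 and were not called. This list averaged 6.15 and 6.32 on the Dicer-deficient arrays against 5.81 to 6.22 on the wild-type arrays. Of 5 primitive endoderm and 2 mesoderm markers measured, 0 were called. The part of other cell types in the results below was not tested, and fewer cells of a type cannot be told apart from less RNA per cell.

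Few of the helicases differed between the genotypes by the test used. A gene was called when its adjusted p in limma, Benjamini-Hochberg over all 19939 genes, lay below 0.05. By that rule 1 member rose in Dicer-deficient cells (Ddx3x), 4 fell (Ddx19b, Ddx43, Dhx8 and Ddx54) and 46 did not pass. That is 9.8% of the members, against 17.1% of all genes, of which 8.48% were called higher and 8.6% lower. Of the 47 members whose mean signal was at or above the median of all probe sets, 5.41, 10.6% were called, against 27.9% of the 11171 genes with such a signal. The members' median log2 change was -0.04 and that of all genes 0.01, while their median absolute change was 0.13, against 0.12 for all genes and 0.19 for genes at or above the median signal.

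Small shifts without overlap were more common than calls. For 28 of 51 members, 54.9%, the Dicer-deficient and wild-type values did not overlap, 12 with the Dicer-deficient values above and 16 below. The same held for 39.9% of all genes, 20% above and 19.9% below, and for 55.5% of genes at or above the median signal. The 95% confidence interval of the change lay inside a 2-fold difference either way for 50 of the 51 members, Ddx43 being the exception, and for 92.2% of genes at or above the median signal. Among the 46 members not called, the intervals reached from -0.52 to 0.46. Leaving out either Dicer-deficient array leaves 1 array in that group. In these fits the called members lost their calls, and calls over all genes became fewer as well. The members' median log2 change was 0.0033 without Dicer-deficient array 1 and -0.05 without array 2.

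**Figure D1:**
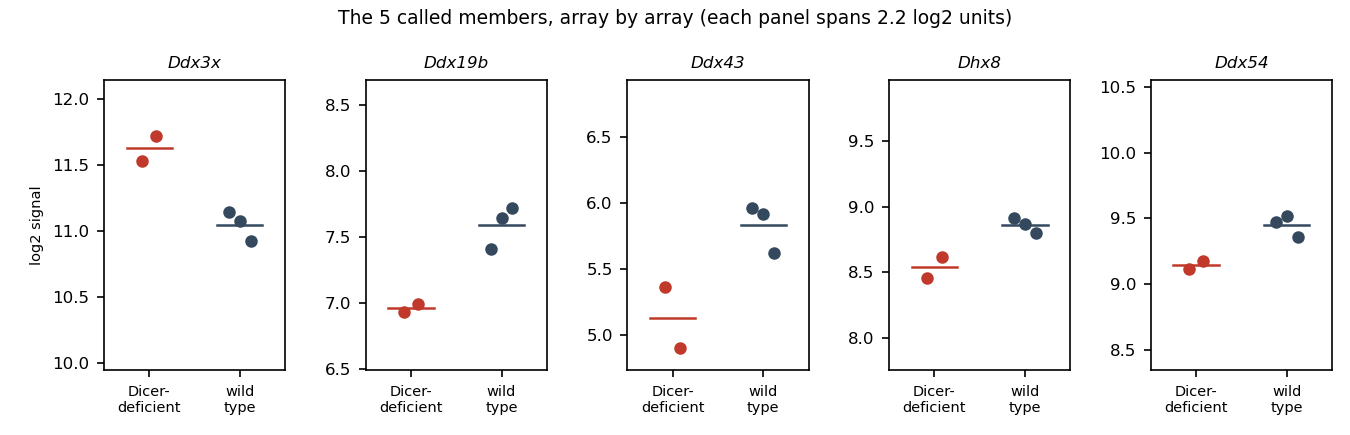
Log2 signal (vertical axis) of the 5 called members on the 2 Dicer-deficient arrays (left, red) and the 3 wild-type arrays (right, dark blue); each point is an array and each bar a group mean. Ddx3x lies higher in Dicer-deficient cells and the other 4 lie lower, with no overlap between the groups in any panel.

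Ddx3x, which unwinds structured leaders of mRNAs as they begin translation and lies on the X chromosome, rose most. It read 11.53 and 11.72 in Dicer-deficient cells, against 11.14, 11.07 and 10.92 in wild-type cells. Both Dicer-deficient arrays stood above every wild-type array. The log2 change was 0.58 (SE 0.1, 95% interval 0.35 to 0.82), a 1.5-fold higher level with adjusted p = 0.00702 in limma. The change was 0.68 without Dicer-deficient array 1 (adjusted p = 0.0591) and 0.49 without array 2 (adjusted p = 0.104). The call held without each wild-type array in turn.

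A further probe set annotated to Ddx3x gave 10.47 and 10.74 in Dicer-deficient cells, against 10.04, 9.86 and 9.85 in wild-type cells. It again separated the groups, with a log2 change of 0.69 (SE 0.109, adjusted p = 0.00533 over 21789 probe sets). D1Pas1, an autosomal retrocopy of Ddx3x in the mouse, read 7.60 and 7.92 in Dicer-deficient cells, against 7.12, 6.88 and 6.79 in wild-type cells. Its log2 change of 0.83 had adjusted p = 0.00489, and 0.097 without Dicer-deficient array 2. These copies are close in sequence, and how far the probe sets read each other's transcripts was not tested. Dicer-deficient array 2 was the higher of its group and wild-type array 1 the highest of its group in each of the 3 probe sets.

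**Figure D2:**
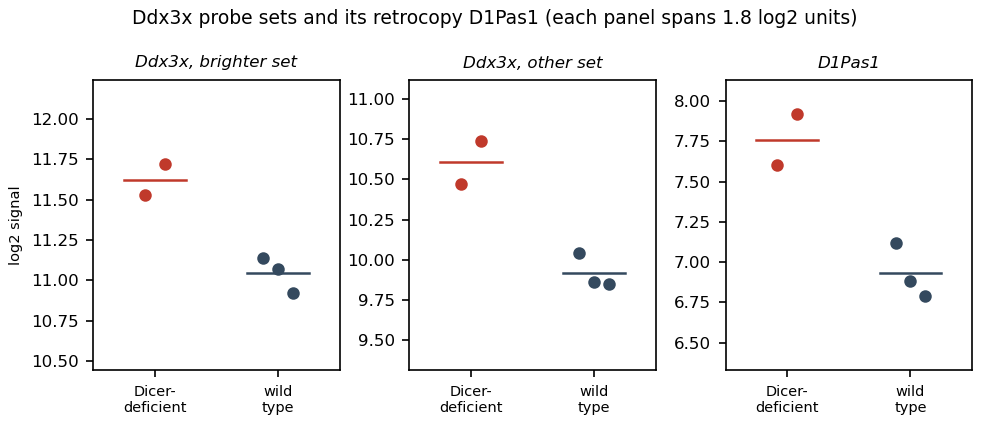
Log2 signal (vertical axis) of the brighter and the other Ddx3x probe set and of the retrocopy D1Pas1, on 2 Dicer-deficient arrays (left, red) and 3 wild-type arrays (right, dark blue), with group means as bars. All 3 probe sets lie higher in Dicer-deficient cells, by log2 changes of 0.58, 0.69 and 0.83.

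Around Ddx3x on the X chromosome, the nearest measured genes in the order of the GRCm38.p6 gene table were Usp9x before it and Nyx after it. Usp9x, a deubiquitinase, had a log2 change of 0.34 (adjusted p = 0.0672) and Nyx one of 0.02 (adjusted p = 0.957). Further out, AA414768 had 1.00 (adjusted p = 0.000393) and Cask, a scaffold kinase, 0.43 (adjusted p = 0.0201). Of these 4 genes, AA414768 and Cask were called higher.

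The promoter of Ddx3x is shown because the gene is the member that rose. Windows run from 250 bases before the annotated start to 50 after it and come from RefSeq on GRCm38.p6. Here and below, capitals mark matches, on either strand, to the TATA box core TATAA, the CCAAT box CCAAT, the GC box CCGCCC, the E box CACGTG and the ETS site CCGGAAGT, motifs chosen after the letters were seen. The Ddx3x window is chrX:13280772-13281071, plus strand.
Ddx3x: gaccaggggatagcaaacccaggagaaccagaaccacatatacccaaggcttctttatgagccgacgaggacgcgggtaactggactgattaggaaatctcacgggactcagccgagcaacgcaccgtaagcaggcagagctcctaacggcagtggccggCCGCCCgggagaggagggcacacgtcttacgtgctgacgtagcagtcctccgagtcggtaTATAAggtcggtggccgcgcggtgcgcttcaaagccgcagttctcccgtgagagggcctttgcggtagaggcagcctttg
It holds a TATAA match that begins 30 bases before the start, and 1 GC box. A TATAA match occurs in 24.9% of all 32851 windows and in 7.18% of the 8701 windows with at least 20 CpG. The Ddx3x window has 25 CpG.

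Ddx19b, a DEAD-box helicase of the nuclear pore that releases mRNAs on the cytoplasmic side, fell. It read 6.93 and 6.99 in Dicer-deficient cells, against 7.41, 7.64 and 7.72 in wild-type cells. The Dicer-deficient arrays lay close together below a wild-type group whose lowest member was array 1. The log2 change was -0.63 (SE 0.106, 95% interval -0.88 to -0.38), a 1.55-fold lower level with adjusted p = 0.00629 in limma. Leaving out Dicer-deficient array 1 gave adjusted p = 0.116 and leaving out array 2 gave 0.0918, and the gene kept its call without each wild-type array. Ddx19a, a near-identical neighbour on chromosome 8, was not analysed here, so the share of each copy in this signal is unknown. The 4 nearest other measured genes, Fcsk, St3gal2, Clec18a and Pdpr, had log2 changes between -0.06 and 0.12 (adjusted p from 0.519 to 0.746).

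Ddx43, a helicase of the germ line, had the largest change of any member. It read 5.36 and 4.90 in Dicer-deficient cells, against 5.96, 5.92 and 5.62 in wild-type cells. The spread within the groups was the widest among the called members, with SDs of 0.325 (n = 2) and 0.186 (n = 3). The log2 change was -0.70 (SE 0.157, 95% interval -1.07 to -0.34, adjusted p = 0.0201). Both Dicer-deficient signals were under 5.41, the median over all probe sets, and no reading of background was analysed here, so the size of the fall is uncertain. The call was lost without Dicer-deficient array 1 (adjusted p = 0.0619) or 2 (0.207, with a change of -0.47) and without wild-type array 1 (0.101) or 2 (0.113). On chromosome 9 neither gene immediately beside it was called lower: Ooep, a maternal-effect gene, had a log2 change of 0.55 (adjusted p = 0.0405), and Cgas, the DNA sensor, had 0.01 (adjusted p = 0.945).

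Dhx8, the DEAH-box helicase that frees spliced mRNA from the spliceosome, fell by a smaller step. It read 8.46 and 8.62 in Dicer-deficient cells, against 8.91, 8.87 and 8.80 in wild-type cells. The groups did not overlap. The log2 change was -0.32 (SE 0.0859, adjusted p = 0.0411 in limma), a 1.25-fold lower level. Leaving out any of the 5 arrays removed the call, with adjusted p from 0.0548 without wild-type array 3 to 0.226 without Dicer-deficient array 1, and centring the arrays on their medians gave 0.0522. Rdm1 and Etv4, the genes beside it on chromosome 11, had log2 changes of 0.06 and 0.05, and Tmem106a, the next gene beyond Rdm1, had 0.89 (adjusted p = 0.00379).

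Ddx54, a nucleolar helicase of large ribosomal subunit assembly, was the call nearest the threshold. It read 9.12 and 9.18 in Dicer-deficient cells, against 9.47, 9.52 and 9.36 in wild-type cells. The values of the genotypes were separate, with a log2 change of -0.30 (SE 0.0834, adjusted p = 0.0466 in limma). Only without wild-type array 3 did the call hold (0.0363); without the other arrays adjusted p ran from 0.12 to 0.231. A dimmer Ddx54 probe set read 6.05 and 5.95 in Dicer-deficient cells, against 6.08, 5.90 and 6.10 in wild-type cells. That probe set overlapped between the groups (log2 change -0.03, adjusted p = 0.905), so the probe sets of Ddx54 disagree.

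Promoter windows of the 4 members that fell are shown to compare their letters. They are chr8:111031702-111032001, minus strand, for Ddx19b (the outermost of its 2 windows), chr9:78395527-78395826, plus strand, for Ddx43, chr11:101732706-101733005, plus strand, for Dhx8, and chr5:120612880-120613179, plus strand, for Ddx54.
Ddx19b: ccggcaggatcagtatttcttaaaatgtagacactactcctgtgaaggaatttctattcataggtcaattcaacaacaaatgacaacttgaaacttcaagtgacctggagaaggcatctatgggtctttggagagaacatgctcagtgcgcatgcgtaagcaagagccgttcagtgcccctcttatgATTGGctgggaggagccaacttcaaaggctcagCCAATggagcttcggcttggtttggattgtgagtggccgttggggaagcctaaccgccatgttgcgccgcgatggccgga
Ddx43: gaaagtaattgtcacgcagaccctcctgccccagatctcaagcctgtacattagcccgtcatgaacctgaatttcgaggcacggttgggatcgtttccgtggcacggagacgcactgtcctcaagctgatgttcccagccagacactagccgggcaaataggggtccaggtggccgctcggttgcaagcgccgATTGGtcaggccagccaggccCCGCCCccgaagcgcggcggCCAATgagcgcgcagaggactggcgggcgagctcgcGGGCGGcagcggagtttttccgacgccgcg
Dhx8: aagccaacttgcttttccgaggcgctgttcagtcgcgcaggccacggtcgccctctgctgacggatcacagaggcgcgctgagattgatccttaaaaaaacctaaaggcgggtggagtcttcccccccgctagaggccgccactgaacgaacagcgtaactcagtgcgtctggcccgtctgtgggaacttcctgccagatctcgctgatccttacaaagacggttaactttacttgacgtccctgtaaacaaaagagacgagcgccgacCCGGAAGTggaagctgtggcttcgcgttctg
Ddx54: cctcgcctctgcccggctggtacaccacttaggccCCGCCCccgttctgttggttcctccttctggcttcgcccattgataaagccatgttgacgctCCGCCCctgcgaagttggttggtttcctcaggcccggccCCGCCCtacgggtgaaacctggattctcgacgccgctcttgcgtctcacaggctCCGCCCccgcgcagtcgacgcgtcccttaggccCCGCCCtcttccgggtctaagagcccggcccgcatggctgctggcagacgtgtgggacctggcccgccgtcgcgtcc
The windows of Ddx19b and Ddx43 each hold 2 CCAAT boxes, and that of Ddx43 also holds 2 GC boxes. The Ddx54 window holds 5 GC boxes, and that of Dhx8 holds the ETS site alone. None of the 5 motifs is common to all 4 windows. They carry 11, 30, 25 and 30 CpG in the order Ddx19b, Ddx43, Dhx8 and Ddx54, with a median of 24 over the 56 windows of the 45 members found in the table and 7 over all windows. The ETS site was present in 19.6% of the members' windows and in 3.89% of all windows. Among windows with at least 20 CpG, it was present in 10 of 39 members' windows, 25.6%, and in 8.57% of all. E boxes were in 12.5% of the members' windows and 7.15% of all, and in 15.4% and 11.6% of those with at least 20 CpG. In windows with at least 20 CpG, GC boxes were less common among members (71.8% against 80.9%). CCAAT boxes (46.2% against 32.9%) and TATAA matches (12.8% against 7.18%) were more common there. The windows shown are among those counted, and some genes have several windows. No difference in share was tested.

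Translation and mRNA turnover was represented by 6 members, of which Ddx3x alone was called. This share of 16.7% compares with 17.1% of all genes and 27.9% of genes at or above the median signal. Ddx6, the decapping activator that also works in microRNA repression, read 10.82 and 10.98 in Dicer-deficient cells, against 10.87, 10.88 and 10.81 in wild-type cells. The groups overlapped, and the log2 change was 0.05 with a 95% interval of -0.15 to 0.24 (adjusted p = 0.81). It was -0.033 without Dicer-deficient array 2. Dhx36, which resolves G-quadruplexes, read 8.83 and 8.84 against 8.86, 8.98 and 8.99 in wild-type cells. Its arrays were separated by a narrow margin (log2 change -0.11, interval -0.30 to 0.08, adjusted p = 0.479). The changes of Ddx1, of the tRNA ligase complex, Dhx29, which helps initiation complexes scan structured leaders, and Dhx34, of nonsense-mediated decay, were -0.02, -0.12 and -0.04.

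Partners of Ddx6 in decay and repression included genes called in both directions. Of 23 measured, 4 rose and 2 fell in Dicer-deficient cells, with a median log2 change of -0.11. The calls make 26.1% of the list, against 27.9% of genes at or above the median signal. The deadenylases Cnot6 and Cnot6l rose 1.86-fold and 1.9-fold, to 9.56 ± 0.0707 and 8.23 ± 0.099 in Dicer-deficient cells (SD, n = 2), against 8.66 ± 0.0586 and 7.31 ± 0.101 in wild-type cells (SD, n = 3). Their adjusted p-values were 0.00044 and 0.000701, and both kept the call without each array in turn. Eif4enif1, which binds the cap-binding protein eIF4E and Ddx6, fell 1.49-fold (log2 change -0.58, adjusted p = 0.00447 in limma). It lost the call without Dicer-deficient array 2, where the change was -0.48. Averaging its probe sets gave a smaller change of -0.35 (adjusted p = 0.0227). Cnot7 and the stress granule protein G3bp2 were the other members that rose, by 0.30 and 0.41, and Lsm14b fell by 0.42 on the log2 scale. G3bp2 and Lsm14b each kept the call in 1 of the 5 fits that leave out an array (adjusted p up to 0.211 and 0.15), and Cnot7 in 0 of the 5 by limma (adjusted p from 0.0623 to 0.191).

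Small RNA pathway members were all among those not called. Ddx5 read 11.12 and 11.20 in Dicer-deficient cells, against 11.04, 11.10 and 10.99 in wild-type cells (log2 change 0.12, 95% interval -0.07 to 0.30, adjusted p = 0.433). Its other probe set had 0.19 (adjusted p = 0.151). Ddx17, its closest relative, read 9.67 on both Dicer-deficient arrays, against 9.71, 9.72 and 9.71 in wild-type cells. That shift of -0.04 (interval -0.21 to 0.13, adjusted p = 0.794) became 0.014 after a further quantile normalization. Dhx9, known as RNA helicase A and linked in human cells to the loading of small RNAs, read 10.63 and 10.65 against 10.55, 10.55 and 10.37 in wild-type cells. Its change of 0.15 (interval -0.05 to 0.35) had adjusted p = 0.346. The values of the genotypes did not overlap in these 3 genes, as in 55.5% of genes at or above the median signal.

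Some members are hosts of microRNA genes, whose products need Dicer unless they are made by an unusual route. By the RefSeq coordinates on GRCm38.p6, Ddx5 holds Mir3064, Ddx19b holds Mir3473d, and Ddx39b holds Mir6975 and Mir8094, each on the strand of its host. No probe set used here names these microRNA genes, so the host signal is the only reading. The mature sequences of the microRNAs in Ddx5, the host nearest to the microRNA pathway, and in Ddx19b, the host that fell, are given with the seed, bases 2 to 8, in capitals.
mmu-miR-3064-5p: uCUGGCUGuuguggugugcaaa
mmu-miR-3064-3p: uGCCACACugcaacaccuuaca
mmu-miR-3473d: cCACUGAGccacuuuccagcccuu
The 3 seeds differ from each other. Of these hosts, Ddx19b was lower in Dicer-deficient cells and Ddx5 and Ddx39b were not called.

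Splicing, with 12 members, had 1 called lower (Dhx8) and 0 called higher by limma. The share called was 8.33%, against 17.1% of all genes and 27.9% of genes at or above the median signal. In limma 4 of the 12 had an unadjusted p under 0.05, as did 5545 of all 19939 genes and 4825 of the 11171 at or above the median signal. The changes ran from -0.32 to 0.21 with a median of 0.02. Dhx15, which takes spent spliceosomes apart, read 10.82 and 10.88 in Dicer-deficient cells, against 10.67, 10.69 and 10.66 in wild-type cells (log2 change 0.18, interval 0.00 to 0.35, adjusted p = 0.172). It was separate and higher, whereas its fellow DEAH-box release factor Dhx8 was separate and lower. Within each array, the log2 signal of Dhx15 minus that of Dhx8 was 2.36 and 2.26 in Dicer-deficient cells, against 1.76, 1.82 and 1.86 in wild-type cells. Dhx15 was not called, and this difference was not tested. Ddx23, which admits the U4/U6.U5 particle, had 0.21 (adjusted p = 0.185), and Ddx46 and Dhx35 had -0.21 and -0.18 (adjusted p = 0.137 and 0.155). The other 7 lay between -0.10 and 0.15.

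Of the 22 G-patch proteins measured, a group that includes the activators of DEAH-box helicases, 2 rose and 3 fell in Dicer-deficient cells. These are 22.7% of the list, against 27.9% of genes at or above the median signal. Gpkow, a cofactor of the spliceosomal helicase Dhx16, rose 1.56-fold to 8.22 ± 0.0778 in Dicer-deficient cells (SD, n = 2), against 7.58 ± 0.0577 in wild-type cells (SD, n = 3), with adjusted p = 0.00195 and a call that held without each array. Dhx16 itself had a change of -0.10 (adjusted p = 0.679). Tfip11, which activates Dhx15 in spliceosome disassembly, rose by 0.41 (adjusted p = 0.0358, and 0.068 to 0.26 with each array left out). Rbm17, Nkrf and Rbm6 fell by 0.55, 0.31 and 0.27 on the log2 scale. Their highest adjusted p with an array left out was 0.112, 0.178 and 0.147. Averaging its probe sets gave Rbm6 a change of -0.10 with adjusted p = 0.633.

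mRNA export had 4 members measured, with Ddx19b the one called. It makes 25% of the role, against 17.1% of all genes and 27.9% of genes at or above the median signal. Ddx39b, the helicase that couples splicing to export, read 10.75 and 10.80 in Dicer-deficient cells, against 10.82, 10.71 and 10.61 in wild-type cells. The groups overlapped (log2 change 0.06, interval -0.14 to 0.27, adjusted p = 0.754). Its paralogue Ddx39a had a change of 0.05 (interval -0.13 to 0.24). Within each array Ddx39a minus Ddx39b was -1.28 and -1.32 in Dicer-deficient cells, against -1.38, -1.23 and -1.26 in wild-type cells, so the balance of the paralogues did not separate the genotypes. Ddx25, an export helicase of the testis, read 4.58 and 4.69 against 4.84, 4.67 and 4.79 in wild-type cells, below the median of all probe sets.

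Ribosome biogenesis was the largest role, with 15 members. Ddx54 was called lower and 14 were not called. The share called was 6.67%, against 17.1% of all genes and 27.9% of genes at or above the median signal. The median log2 change was -0.07, with 9 negative and 6 positive changes. In 6 members the Dicer-deficient values lay below every wild-type value and in 2 above, and these 53.3% compare with 55.5% of genes at or above the median signal. Ddx21, which promotes rRNA transcription and processing, read 9.87 and 10.10 in Dicer-deficient cells, against 10.28, 10.31 and 10.24 in wild-type cells (log2 change -0.29, interval -0.51 to -0.08, adjusted p = 0.0727). It was separate and lower. Adjusted p was 0.0484, 0.0427 and 0.0361 when dim genes were left out, with an intensity trend and with array weights, but 0.106 after a further quantile normalization. With each array left out it ran from 0.0731 to 0.318, and without Dicer-deficient array 1 the change was -0.18.

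Dhx37, which releases the U3 snoRNA from the nascent small subunit, read 8.43 and 8.32 in Dicer-deficient cells, against 8.76, 8.72 and 8.51 in wild-type cells. The values did not overlap (log2 change -0.29, interval -0.52 to -0.06, adjusted p = 0.0976). Adjusted p was 0.0376 without wild-type array 3 and 0.241 to 0.418 without each of the other arrays. Ddx31, Ddx56 and Ddx10 had changes of -0.23, -0.20 and -0.17, and Ddx24, Ddx47 and Ddx50 were the highest of the role with 0.15, 0.11 and 0.11. Ddx50 is the paralogue of Ddx21 and lies beside it on chromosome 10. Within each array Ddx21 minus Ddx50 was 1.56 and 1.79 in Dicer-deficient cells, against 2.24, 2.04 and 1.95 in wild-type cells. The difference was lower on both Dicer-deficient arrays, by 0.40 on average. Neither gene was called, and the difference was not tested.

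**Figure D3:**
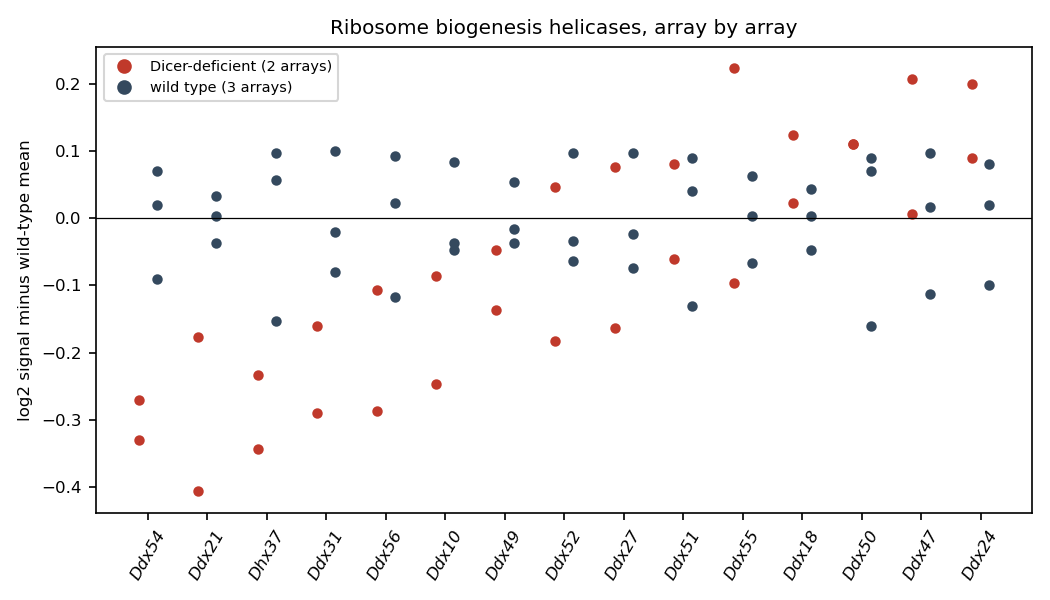
Log2 signal of each ribosome biogenesis helicase minus its wild-type mean (vertical axis), with 2 Dicer-deficient arrays as red points at the left of each gene and 3 wild-type arrays as dark blue points at the right. Genes are ordered by their change; Ddx54, Ddx21 and Dhx37 lie lowest in Dicer-deficient cells, and Ddx24 lies highest.

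Among 32 other nucleolar factors of ribosome assembly, 7 fell and 1 rose in Dicer-deficient cells. These are 25% of the list, against 27.9% of genes at or above the median signal. Changes were negative for 27 and positive for 5, with a median of -0.15, and negative for 5680 of the 11171 genes at or above the median signal, with a median of -0.01. No test of the list as a whole was made. Nhp2, a protein of H/ACA snoRNPs, was 1.84-fold lower, at 9.75 ± 0.113 in Dicer-deficient cells (SD, n = 2) against 10.63 ± 0.0231 in wild-type cells (SD, n = 3), with adjusted p = 0.00052. Nat10, an RNA acetyltransferase, was 1.49-fold lower (adjusted p = 0.00208). Both kept their call without each array in turn. Rrp9, of the U3 snoRNP, was 1.5-fold lower (adjusted p = 0.00328, and 0.0651 at most with an array left out). Nop58, a core protein of box C/D snoRNPs, was the member that rose, 1.4-fold (adjusted p = 0.00733, and 0.0948 at most). The others that fell were Utp18, Heatr1, Utp14a and the nucleolar chaperone Npm1, by 0.39, 0.38, 0.33 and 0.31 on the log2 scale. Each of these lost the call in at least 4 of the 5 fits that leave out an array, with adjusted p up to 0.189, 0.175, 0.132 and 0.197.

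The members with a role in RNA sensing gave no call. By limma 0 of 4 passed, and 0 had an unadjusted p under 0.05. Over all genes 17.1% passed, and 5545 of 19939 had such an unadjusted p. Ddx58, which encodes the cytosolic sensor RIG-I, read 8.70 and 8.99 in Dicer-deficient cells, against 8.69, 8.63 and 8.56 in wild-type cells. Dicer-deficient array 1 stood only just above the wild-type range and array 2 clearly above it (log2 change 0.22, interval -0.02 to 0.46, adjusted p = 0.232). Dhx58, which encodes the related LGP2, read 4.43 and 4.44 against 4.43, 4.15 and 4.20 in wild-type cells (change 0.18, adjusted p = 0.339). Ddx60 read 3.83 and 3.79 against 3.68, 3.74 and 3.75. Dhx58 and Ddx60 stayed under the median of all probe sets on every array. Dhx33, with roles in sensing and in translation, had a change of -0.17 with overlap. Of 11 partners measured, 1 rose and 1 fell, 18.2% of the list, against 17.1% of all genes and 27.9% of genes at or above the median signal. The adaptor Mavs had a log2 change of 0.33 and the ubiquitin ligase Trim25 one of -0.33 (adjusted p = 0.0392 and 0.0275 in limma). With an array left out their adjusted p reached 0.238 and 0.159.

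Among the germ-line members, Ddx4, the Vasa helicase that marks germ cells, went the other way from Ddx43. It read 6.59 and 6.56 in Dicer-deficient cells, against 6.23, 6.30 and 6.45 in wild-type cells. The groups were separate (log2 change 0.25, interval 0.04 to 0.46, adjusted p = 0.114). Adjusted p was 0.0474 without wild-type array 3 and 0.248 to 0.363 without each of the other arrays. The 4 germ cell markers, Ddx4 included, averaged 5.86 and 5.60 on the Dicer-deficient arrays against 5.76 to 5.80 on the wild-type arrays. The other 3, Dazl, Dppa3 and Nanos3, had changes of -0.18, -0.45 and 0.15 and were not called (adjusted p = 0.324, 0.0611 and 0.579).

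The remaining members gave no call. Ddx20, the Gemin3 subunit of the SMN complex that loads Sm proteins onto snRNAs, read 8.54 and 8.67 in Dicer-deficient cells, against 8.54, 8.67 and 8.37 in wild-type cells (log2 change 0.08, interval -0.17 to 0.33, adjusted p = 0.736). The ranges overlapped. Of 8 other SMN complex genes Gemin5, which recognises snRNAs, fell 1.55-fold (adjusted p = 0.00387, and 0.0592 at most with an array left out), and Gemin7 rose 1.34-fold (adjusted p = 0.0357, and 0.258 at most). These calls make 25% of the 8 genes, against 27.9% of genes at or above the median signal. Ddx28, a helicase of mitochondrial ribosome assembly, read 4.63 and 4.59 against 4.77, 4.93 and 4.91 in wild-type cells. It was separate and lower (change -0.26, adjusted p = 0.0784), at signals below the median of all probe sets. Dhx30, its fellow in mitochondria, had -0.04.

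Dhx32 read 7.85 and 7.73 in Dicer-deficient cells, against 8.07, 7.98 and 8.05 in wild-type cells (log2 change -0.24, adjusted p = 0.0865), again without overlap. Ddx11, a DNA helicase of sister chromatid cohesion, had the same change of -0.24 (adjusted p = 0.142). Dhx40, Dhx57 and Ddx59 lay between -0.05 and 0.14. By location the 51 genes were spread over 16 chromosomes, with 8 on chromosome 11, 6 on chromosome 8 and 5 each on chromosomes 5 and 9.

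RNA helicases outside the DDX and DHX names were set beside the members. Of 20 measured, 5 rose and 3 fell in Dicer-deficient cells, D1Pas1 among those that rose. The calls make 40% of the list, against 17.1% of all genes and 27.9% of genes at or above the median signal. Mov10, an RNA helicase that binds Argonaute, was 1.98-fold higher (adjusted p = 0.00342) and kept its call without each array. Znfx1 rose 1.56-fold, and Snrnp200, which unwinds U4 from U6, and Ascc3 each rose 1.23-fold. Eif4a2, a paralogue of the initiation helicase Eif4a1, fell 1.25-fold (adjusted p = 0.0419), while Eif4a1 had a change of -0.02. Ythdc2, a helicase with an m6A reader domain, fell by 0.36. Zcchc17, which fell by 0.51 and was counted in this list, is a zinc finger protein and no helicase. Znfx1 lost its call in 3 of the 5 fits with an array left out, and Snrnp200, Ascc3 and Eif4a2 in all 5, with adjusted p up to 0.131, 0.23, 0.217 and 0.205. Ythdc2 reached 0.193 and Zcchc17 0.0713. Whether the families differ in how often they changed was not tested.

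**Figure D4:**
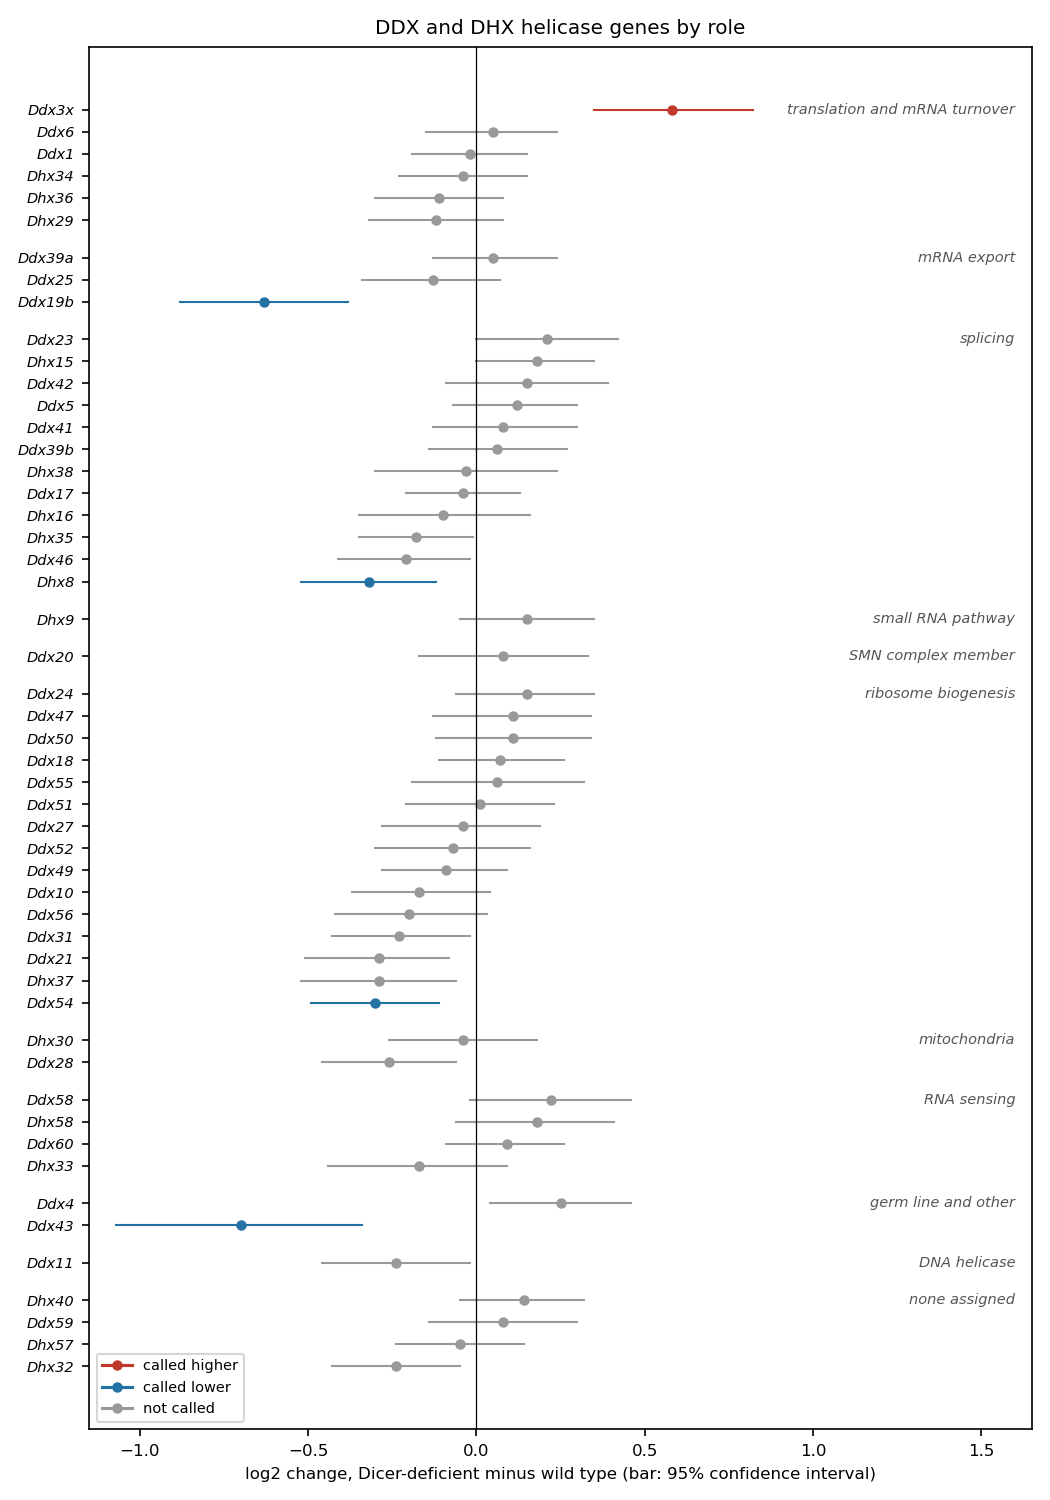
Log2 change of each of the 51 members, Dicer-deficient minus wild type (horizontal axis), with 95% confidence intervals as bars, grouped by role; a member with several roles stands under the first. Red marks the 1 member called higher, blue the 4 called lower and grey the 46 not called, whose intervals all lie between -0.52 and 0.46.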

How the data were processed

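Per the labels' protocols, total RNA was labelled as biotinylated cRNA for Affymetrix arrays with whole-transcript labelling. The authors deposited 1 table of normalized log2 signals for 35556 probe sets on 5 arrays. Background correction, probe summary, normalization and log base are not given in the sources used here; log2 was read from the range of the values. All 5 value columns were matched to samples.

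Of the probe sets, 21789 had 1 symbol, 1621 several and 12146 none in the platform annotation. They gave 19939 genes by gene identifier, of which 19856, and all 51 members, were found in the GRCm38.p6 gene table, used for chromosome and gene order. Genes were tested with limma 3.58.1 in R 4.3.3 (lmFit, eBayes; 3 residual and 4.55 prior degrees of freedom), Dicer-deficient minus wild type, Benjamini-Hochberg adjusted at 0.05. The fit was tested on simulated data. SDs are between arrays. An exact permutation of 2 against 3 arrays cannot go below p = 0.1, so none is given. Tables and figures used Python 3.11.15, pandas 2.3.3, numpy 2.4.6 and matplotlib 3.10.9.

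Members, roles and lists were chosen with earlier results of these data known. Given array by array are members that were called, 13 chosen by role and the 5 largest changes not called, 20 in all; Ddx25, Ddx60 and other genes named beyond these and the lists were chosen after their values were seen. Genes next to called members were not followed through the alternatives. Alternatives were array weights, robust moderation, an intensity trend, the replicate number as a block, treat at 1.2-fold, centring on array medians, a second quantile normalization, averaging the probe sets of a gene, a filter on dim genes, and leaving out each array; separate fits of a gene's probe sets were added after seeing the data.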

Additional observations from a re-analysis of the deposited data

How the results depend on the processing

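The 5 members called kept their call with robust moderation and after a further quantile normalization. With array weights 2 members were called higher and 8 lower, while 4246 of all 19939 genes were called, against 3404 in the main fit. Median centring left 2 members lower, with 3363 genes called in all. Dhx8 and Ddx54 were lost (adjusted p = 0.0522 and 0.0675 in limma). The mean of its probe sets ended the call of Ddx54 (log2 change -0.16, adjusted p = 0.206). Against a fold of 1.2, limma's treat called 0 members higher and 0 lower, and 1144 of all genes, by adjusted p. At an unadjusted p under 0.05 in treat, 1 member was higher and 2 were lower. Leaving out each array gave 0 to 2 members higher and 0 to 5 lower, and 973 to 2956 genes in all, against 3404; fewer arrays estimate the spread in these fits, and a lone array is assumed to vary like the other group. The members' median change ran from -0.055 to 0.0033 over those fits and was 0 after quantile normalization. Ddx6 ran from -0.033 to 0.13, and Ddx17 was 0.014 after quantile normalization.

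The arrays share replicate numbers but the labels do not say that a number marks a shared day or batch, and deviations of same-numbered arrays correlated by 0.05 and 0.01. With the replicate number as a block 894 genes were called. By limma 0 members were called higher and 0 lower in that fit, with 2 and 12 at an unadjusted p under 0.05. The wild-type array with no same-numbered Dicer-deficient array adds nothing to the change there. The block terms also leave less to estimate the spread from, so the lost calls cannot be read as an effect of batch. Of 31 related genes called, 6 kept their call without each array in turn. Signal over background was not analysed here, which limits the size given for members below the median signal.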
